A study of Mus musculus with 8 samples.

Results

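The genes described here are 10 that are expressed across macrophages and other myeloid cells: Cd68, Lyz2, Ctss, Csf1r, Emr1, Siglec1, Mpeg1, Tyrobp, Fcer1g and Laptm5. They were taken by symbol from a table of read counts for 22946 gene rows. Emr1 is the older symbol of Adgre1, which encodes the F4/80 antigen. Each of the 10 had a row of its own, none of them was merged with another gene, and all 10 passed the filter on low counts that left 12593 tested rows. The counts came from RNA-seq of total liver RNA of C57 Black mice whose genotype is given as wild-type or MLL4 het (MLL4, the product of Kmt2d, methylates histones), and which from the age of 8 weeks were fed for 8 weeks on normal chow or on high fat diet, HFD. The 4 groups were wild-type on chow (libraries 1 and 2), wild-type on HFD (libraries 5 and 6), MLL4 het on chow (libraries 3 and 4) and MLL4 het on HFD (libraries 7 and 8). The labels give no allele, age beyond the start of the diet, sex or batch, and do not tie a library to an animal of its own. The p-values therefore set differences between groups against the variation among these libraries, and that variation may be technical. The study's design text asks which genes the diet alters in wild-type livers and which of them respond less in MLL4 het livers.

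Macrophages arise from monocytes or, as in the Kupffer cells of the liver sinusoids, from embryonic precursors that renew themselves in the tissue. Their survival depends on the receptor tyrosine kinase CSF1R, which binds CSF1 and IL-34. Many of their surface receptors have no signalling tail and act through the small adaptors DAP12 (Tyrobp) and the Fc receptor gamma chain (Fcer1g), which recruit the kinase SYK. What they engulf is broken down in lysosomes by enzymes such as lysozyme and cathepsins. The factor PU.1, encoded by Spi1, drives much of this programme. In RNA of whole liver, fewer cells of a type and less RNA per cell cannot be told apart, and the 10 genes are not markers of a single cell type.

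Library totals lay between 14142884 and 18928676 counts, and a member had between 39 and 1121 counts in a library. Levels are CPM, counts per 1e+06 counts of the library after scaling with TMM factors. Kmt2d, listed as Mll2, ranged from 59.95 to 75.4 CPM over the 8 libraries, and its log2 difference between het and wild-type libraries was 0.013 on chow (edgeR adjusted p = 0.975) and 0.11 on HFD (edgeR adjusted p = 0.760). The RNA of this gene thus did not separate the genotypes, and the libraries of the MLL4 het groups are called het-labelled below. On the second principal component, which held 22.2% of the variance, the 4 wild-type libraries (5.62 to 25.15) and the 4 het-labelled libraries (-21.0 to -3.70) lay on opposite sides of 0. On the third, which held 14.2% of the variance, library 8 (-28.6) and library 3 (20.6) stood farthest from 0.

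Promoters are shown for 3 of the genes, Cd68 and Ctss because they passed the test in both comparisons that involve het-labelled chow livers, and Mpeg1 because its levels were ordered differently from those of the rest. The sequences are the 250 bases before the gene's start in RefSeq (GRCm38.p6, not the mm9 build named for the counts), written 5′ to 3′ along the gene, with GAGGAA, the short core bound by PU.1, in capitals.
Cd68 (chr11:69666171-69666420, minus strand): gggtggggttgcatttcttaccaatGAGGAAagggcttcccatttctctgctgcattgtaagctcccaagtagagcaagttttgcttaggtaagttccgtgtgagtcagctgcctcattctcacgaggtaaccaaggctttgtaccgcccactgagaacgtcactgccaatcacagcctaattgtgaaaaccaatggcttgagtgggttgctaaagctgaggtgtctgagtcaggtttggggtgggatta
Ctss (chr3:95526536-95526785, plus strand): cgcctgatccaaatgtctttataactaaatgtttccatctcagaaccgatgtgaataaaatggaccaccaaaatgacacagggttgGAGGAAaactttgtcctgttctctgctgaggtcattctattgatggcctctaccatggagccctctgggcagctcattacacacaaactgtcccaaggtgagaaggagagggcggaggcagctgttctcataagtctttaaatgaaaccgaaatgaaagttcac
Mpeg1 (chr19:12460520-12460769, plus strand): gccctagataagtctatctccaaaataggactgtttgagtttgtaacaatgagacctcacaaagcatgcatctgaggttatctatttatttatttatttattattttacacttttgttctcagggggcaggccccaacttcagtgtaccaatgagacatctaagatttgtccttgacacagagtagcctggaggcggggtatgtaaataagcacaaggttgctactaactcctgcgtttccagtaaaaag
The RefSeq table held a window for 6 of the 10 genes (Cd68, Lyz2, Ctss, Mpeg1, Fcer1g and Laptm5). GAGGAA, searched on both strands, was found in 3 of these 6 windows (Cd68, Ctss and Laptm5) and in 23.3% of 32851 windows of the same length over all genes. It lay 225 bases before the start of Cd68 and 164 bases before that of Ctss on the strand of the gene, and 38 bases before that of Laptm5 on the opposite strand. Of the 250 bases before Laptm5, 191 lie in exons of GENCODE M21, and the Laptm5 site is among these. The longer GAGGAAGT, which contains GAGGAA, was in 0 of the 6 and in 2.44% of all windows.

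The 10 genes shared one ordering of the libraries at its top. For each of them both het-labelled chow libraries lay above the 6 other libraries, as they did for 8.73% of all tested rows. Summed over the 10 genes, the level in wild-type livers was 134 and 130 CPM on chow (libraries 1 and 2) and 144.5 and 136 CPM on HFD (libraries 5 and 6). It was 326 and 272 CPM in livers labelled het on chow (libraries 3 and 4) against 180.5 and 125 CPM on HFD (libraries 7 and 8). The chow libraries of the het label thus stood well above all others, while those on HFD spanned the wild-type range. Library 7 was above library 8 for 10 of the 10 genes (52.1% of tested rows) and above all 4 wild-type libraries for 9 of them (24.2%), the exception being Mpeg1. Library 8 was above all 4 wild-type libraries for 0 of the 10 (24.7% of tested rows) and inside their range for 8 (51.4%).

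**Figure D1:**
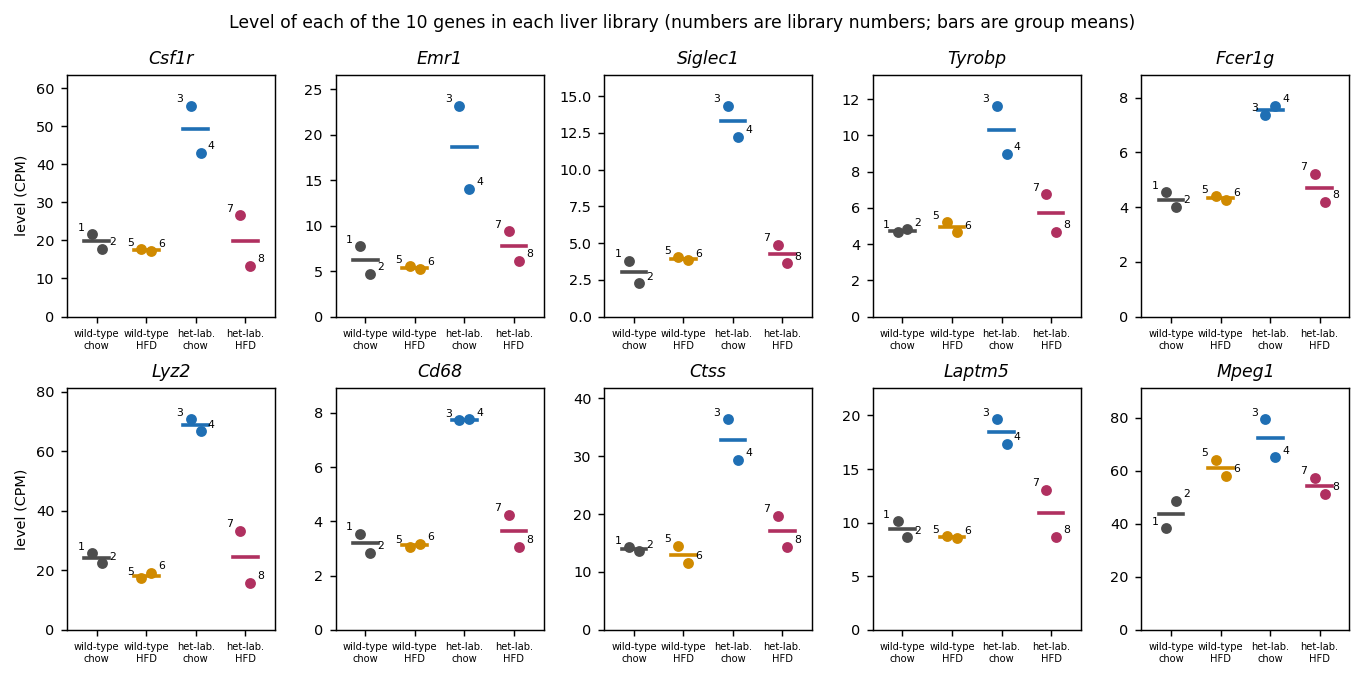
Level of each gene in CPM (y axis, from 0) in the 8 libraries, by group (x axis). Points are libraries with their numbers, bars are means of 2 libraries. Libraries 3 and 4 (het-labelled, chow) are the highest pair in every panel, and library 7 lies above library 8 in every panel.

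Of the 3 surface receptors, Csf1r, the receptor for CSF1 and IL-34, stood in wild-type livers at 21.7 and 17.8 CPM on chow and 17.7 and 17.3 on HFD, and with the het label at 55.35 and 43.1 CPM on chow and 26.6 and 13.3 on HFD (values in the order of the library numbers). The het-labelled HFD pair spanned the wild-type values from above to below. Emr1 (F4/80, an adhesion receptor of tissue macrophages), in the same order of groups and libraries, stood at 7.75 and 4.70, 5.54 and 5.25, 23.2 and 14.1, and 9.39 and 6.12 CPM. Its spread within groups was wide outside wild-type HFD livers. Library 1 was 1.65 times library 2, library 3 was 1.645 times library 4 and library 7 was 1.535 times library 8. Siglec1 (sialoadhesin, a sialic acid receptor by which macrophages bind other cells) stood at 3.78 and 2.26, 4.04 and 3.83, 14.3 and 12.25, and 4.88 and 3.63 CPM. Its het-labelled chow libraries were more than double any other library.

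The adaptors were low and close together outside het-labelled chow livers. Tyrobp stood in wild-type livers at 4.66 and 4.81 CPM on chow and 5.19 and 4.65 on HFD, and with the het label at 11.6 and 8.98 CPM on chow and 6.76 and 4.69 on HFD. Fcer1g stood at 4.54 and 4.0, 4.39 and 4.265, 7.37 and 7.69, and 5.204 and 4.196 CPM in the same order. For both adaptors the wild-type groups and library 8 fell into a single narrow band.

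Among genes of lysosomes and of killing, Lyz2, the lysozyme of macrophages and granulocytes, stood in wild-type livers at 25.7 and 22.3 CPM on chow and 17.25 and 19.25 on HFD, and with the het label at 70.7 and 66.7 CPM on chow and 33.3 and 15.9 on HFD. Lyz1, a near-identical neighbour whose reads may be shared with Lyz2, was lower, at 2.95 ± 0.168, 2.12 ± 0.793, 8.55 ± 1.37 and 3.31 ± 1.46 CPM in these groups (mean ± SD, n = 2), and the treatment of reads that match both was not given in the sources used here. Cd68, a heavily glycosylated protein of macrophage lysosomes, stood at 3.53 and 2.84, 3.06 and 3.17, 7.725 and 7.76, and 4.24 and 3.06 CPM. Its het-labelled chow libraries were nearly equal. Ctss, the cathepsin that trims the invariant chain for antigen presentation, stood at 14.2 and 13.6, 14.5 and 11.5, 36.4 and 29.4, and 19.7 and 14.4 CPM. Laptm5, a lysosomal membrane protein of blood cells, stood at 10.1 and 8.64, 8.71 and 8.58, 19.6 and 17.35, and 13.04 and 8.68 CPM. As for Cd68 and Ctss, library 8 was here within the range of the wild-type libraries.

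Mpeg1, the pore-forming protein perforin-2 of phagocytes, had another profile. It stood in wild-type livers at 38.3 and 48.8 CPM on chow and 64.1 and 58.2 on HFD, and with the het label at 79.4 and 65.1 CPM on chow and 57.5 and 51.3 on HFD. Both wild-type HFD libraries were thus above both wild-type chow libraries and above both het-labelled HFD libraries. Mpeg1 gave between 23.9% and 44.4% of the summed level of the 10 genes, and without it the sum was 96.02 and 80.9, 80.4 and 77.9, 246 and 207, and 123 and 73.9 CPM in the same order of groups. The neighbouring gene Dtx4 stood at 26.3 ± 2.425, 26.2 ± 5.75, 25.8 ± 1.32 and 18.1 ± 1.045 CPM in these 4 groups (mean ± SD, n = 2), and none of its 4 pairwise comparisons passed (edgeR adjusted p = 0.123 to 0.995). Whether reads of a neighbour enter the Mpeg1 row was not tested.

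Per length of the longest coding transcript (GENCODE M21), the mean level in wild-type chow livers ran from 18.2 ± 1.82 CPM per kb for Lyz2 through 10.3 ± 0.351 for Ctss, 10.05 ± 1.71 for Mpeg1, 7.935 ± 0.177 for Tyrobp, 6.25 ± 0.555 for Fcer1g, 4.20 ± 0.583 for Csf1r, 3.61 ± 0.410 for Laptm5, 2.59 ± 0.395 for Cd68 and 1.92 ± 0.667 for Emr1 to 0.473 ± 0.168 for Siglec1 (SD, n = 2). Neighbours in this order whose difference was within their summed SDs were Ctss and Mpeg1, Csf1r and Laptm5, and Cd68 and Emr1. In het-labelled chow livers Lyz2 was again first, at 52.2 ± 2.17 CPM per kb, and Siglec1 last, at 2.08 ± 0.229.

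The first comparison set het-labelled against wild-type livers on chow. Siglec1, Ctss and Cd68 were higher in het-labelled livers. Siglec1 rose from 3.02 ± 1.07 to 13.3 ± 1.46 CPM (log2 difference 2.14 ± 0.24 (SE), edgeR adjusted p = 0.0247), Ctss from 13.9 ± 0.476 to 32.9 ± 4.92 CPM (1.24 ± 0.18, edgeR adjusted p = 0.0407) and Cd68 from 3.18 ± 0.486 to 7.74 ± 0.0226 CPM (1.28 ± 0.20, edgeR adjusted p = 0.0459). These were 3 of the 10 genes, where 0.326% of all tested rows were called higher. The 7 others had log2 differences from 0.73 (Mpeg1) to 1.59 (Emr1) and did not pass, with edgeR adjusted p from 0.0544 (Lyz2) to 0.0757 (Fcer1g). All 10 had an unadjusted p under 0.05 in the higher direction (8.1% of tested rows), and the groups did not overlap for any of them (24% of tested rows). The median of the 10 was 1.26 and that of all tested rows 0.014.

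These calls lay near the threshold. The count was 0 without any 1 of libraries 1, 2, 3 and 6, 1 (Siglec1) without library 5, 6 without library 4 and 8 without library 7 or 8, while it was 9 with DESeq2 and 10 with no filter on low counts. Calls over all rows moved in the same way. They rose from 65 of 12593 to 219 of 12593 with DESeq2 and 314 of 17120 with no filter. They also rose without library 4, 7 or 8, and fell without any 1 of libraries 1, 2, 3, 5 and 6. The log2 difference of Siglec1 ranged from 1.81 to 2.54 over these 8 omissions, and all 10 genes kept an unadjusted p under 0.05 in each.

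The second comparison set the genotypes side by side on HFD. None of the 10 genes was called, where 0.445% of tested rows were (edgeR adjusted p from 0.385 for Ctss to 0.872 for Siglec1), and 0 had an unadjusted p under 0.05 (13.8% of rows). DESeq2 also called 0 of the 10. The log2 differences ran from -0.17 (Mpeg1) to 0.54 (Emr1), with a median of 0.24 against 0.0022 for all tested rows. Only Emr1 (higher, 22.8% of rows) and Mpeg1 (lower, 24.3%) had groups that did not overlap. For Siglec1 the difference was 0.13 (95% interval -0.44 to 0.69), and for Ctss it was 0.40 (-0.018 to 0.81). The estimates on chow, 2.14 and 1.24, lie outside these intervals but have an error of their own. The direct test of the change between diets is the interaction given below, which neither gene passed in edgeR (adjusted p = 0.360 for Siglec1 and 0.600 for Ctss). The median was -0.055 without library 7 and 0.53 without library 8.

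The third comparison, which the design names first, set HFD against chow in wild-type livers. It called 0 of the 10 genes, against 4.59% of tested rows, and DESeq2 called 0 too. The smallest edgeR adjusted p was 0.0975, for Mpeg1 (log2 difference 0.49 ± 0.14 (SE), 95% interval 0.17 to 0.81), the only gene of the 10 with an unadjusted p under 0.05 (19.1% of rows). The other 9 lay between -0.39 (Lyz2, 95% interval -1.01 to 0.23) and 0.39 (Siglec1, -0.205 to 0.98), and the median of the 10 was -0.062 against 0.023 for all tested rows. Both HFD libraries were above both chow libraries for Siglec1 and Mpeg1 (30.6% of rows) and below them for Lyz2 and Csf1r (25.2%). In a fit to the 4 wild-type libraries alone, Lyz2 (log2 difference -0.42, edgeR adjusted p = 0.0483) and Mpeg1 (0.47, edgeR adjusted p = 0.0413) passed. Calls over all rows also rose in that fit, to 1351 of 12304 from 578 of 12593.

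In het-labelled livers, the same diet comparison gave lower levels on HFD. Siglec1 fell from 13.3 ± 1.46 to 4.25 ± 0.887 CPM (log2 difference -1.63 ± 0.23 (SE), edgeR adjusted p = 0.0120), Lyz2 from 68.7 ± 2.86 to 24.6 ± 12.3 CPM (-1.47 ± 0.27, edgeR adjusted p = 0.0269) and Cd68 from 7.74 ± 0.0226 to 3.65 ± 0.834 CPM (-1.07 ± 0.20, edgeR adjusted p = 0.0285). Ctss fell from 32.9 ± 4.92 to 17.0 ± 3.76 CPM (-0.94 ± 0.18, edgeR adjusted p = 0.0296) and Csf1r from 49.2 ± 8.63 to 19.95 ± 9.41 CPM (-1.29 ± 0.27, edgeR adjusted p = 0.0416). These 5 of 10 compare with 1.48% of tested rows called lower. The 5 others had log2 differences from -1.25 (Emr1) to -0.41 (Mpeg1), with edgeR adjusted p from 0.0640 to 0.167. For all 10 the 2 HFD libraries were below both chow libraries (22.4% of tested rows), and the median was -1.004 against -0.0061 for all tested rows.

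Siglec1 alone passed without each library in turn, with edgeR adjusted p from 0.0134 to 0.0395. The count was 1 without any 1 of libraries 1, 2 and 3, 3 without library 4 or 8, and 1 (Siglec1) in a fit to the 4 het-labelled libraries alone. It was 9 with no filter on low counts, where calls over all rows rose from 380 of 12593 to 680 of 17120. Calls over all rows fell in each omission, and to 105 of 12153 in the fit to the 4 het-labelled libraries.

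**Figure D2:**
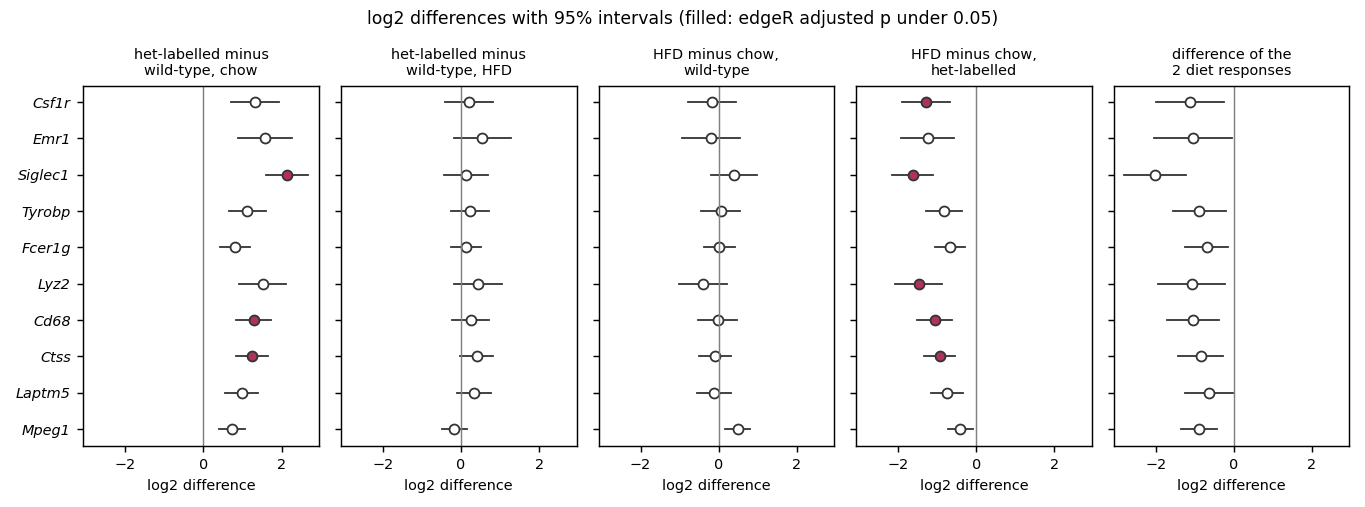
log2 difference of each gene with its 95% interval (x axis) in 4 pairwise comparisons and their interaction, from the edgeR fit to 8 libraries, with a filled point where the adjusted p is under 0.05. Filled points stand in the chow comparison of the genotypes (3 genes) and in the diet comparison of het-labelled livers (5 genes).

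Both comparisons with called genes use het-labelled chow libraries 3 and 4, so they share these values and are not independent. The difference between the 2 diet responses was tested as an interaction. In edgeR it called 0 of 12593 rows (0%), of which 7.15% had an unadjusted p under 0.05. The 10 genes did not pass, with log2 differences (het-labelled response minus wild-type response) from -2.01 ± 0.35 (SE) for Siglec1 (edgeR adjusted p = 0.360) to -0.64 ± 0.27 for Laptm5 (edgeR adjusted p = 0.690), a median of -0.97 against -0.020 for all tested rows, and all 10 at an unadjusted p under 0.05 in this direction (4.11% of rows). DESeq2 called 23 rows, Siglec1 among them (DESeq2 adjusted p = 0.00742) and none of the other 9. Siglec1 also passed with no filter on low counts (edgeR adjusted p = 0.0452), and Lyz2 passed without library 7 (log2 difference -1.72, edgeR adjusted p = 0.0146). Over all alternatives the edgeR adjusted p of Siglec1 lay between 0.0452 and 0.883.

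Averaged over the diets, 7 of the 10 genes were higher in het-labelled livers (Siglec1, Ctss, Cd68, Lyz2, Laptm5, Emr1 and Tyrobp), where 1.21% of tested rows were called higher. Their log2 differences ran from 0.66 ± 0.13 (SE) for Laptm5 (edgeR adjusted p = 0.0383) to 1.13 ± 0.17 for Siglec1 (edgeR adjusted p = 0.0207). Csf1r (0.76 ± 0.19, edgeR adjusted p = 0.0687), Fcer1g (0.47 ± 0.12, edgeR adjusted p = 0.0708) and Mpeg1 (0.28 ± 0.10, edgeR adjusted p = 0.159) did not pass. Averaged over the genotypes, 4 genes (Lyz2, Ctss, Csf1r and Cd68) were lower on HFD, where 4.84% of tested rows were, with log2 differences from -0.93 ± 0.19 (Lyz2, edgeR adjusted p = 0.0174) to -0.52 ± 0.13 (Ctss, edgeR adjusted p = 0.0364). The genotype count was lower without any 1 of libraries 1, 2, 3, 5, 6 and 7. Calls over all rows fell in these omissions too, except without library 7, where they rose. The diet count was lower without any 1 of libraries 1, 2, 3, 5, 6 and 8. There calls over all rows fell as well, except without library 3, where they rose. Over the omissions the median log2 difference of the 10 genes ranged from 0.58 to 0.89 for the genotype and from -0.66 to -0.43 for the diet.

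Genes that work with the 10 were read from lists chosen for this description. Of 12 tested receptors, kinases and phospholipases that signal with Tyrobp and Fcer1g, 2 rose in het-labelled livers on chow, among them Vav1. Vav1, an exchange factor downstream of SYK, rose from 1.48 ± 0.0444 to 4.36 ± 1.16 CPM (log2 difference 1.55 ± 0.26 (SE), edgeR adjusted p = 0.0494). The median of this list was 1.23 on chow, and it was -0.92 for the diet in het-labelled livers, where 0 were called. Syk itself stood at 3.81 ± 0.224, 2.83 ± 0.170, 6.28 ± 0.359 and 3.23 ± 1.35 CPM in the 4 groups, in the order used above.

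In the list of the CSF1 axis and its transcription factors (9 tested), 0 genes differed between the genotypes on either diet. The ligands stood at similar levels for Csf1, 7.67 ± 0.958, 7.06 ± 0.547, 8.00 ± 0.997 and 7.43 ± 0.951 CPM in the same order of groups, while Il34 stood at 0.726 ± 0.0427, 0.762 ± 0.228, 1.29 ± 0.0861 and 0.820 ± 0.0538. Spi1, listed as Sfpi1, stood at 2.185 ± 0.385, 1.60 ± 0.138, 4.32 ± 0.812 and 2.86 ± 1.73 CPM. Of 14 tested genes of lysosomes and uptake, 1, Lgmn (the protease legumain), was higher in het-labelled livers on chow (0.85 ± 0.14, edgeR adjusted p = 0.0464) and lower on HFD in het-labelled livers (-0.77 ± 0.14, edgeR adjusted p = 0.0269).

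Most markers of Kupffer cells moved with the 10 genes, and Marco did not. Of 10 Kupffer cell markers, 5 were higher in het-labelled livers on chow and 6 were lower on HFD in het-labelled livers, with medians of 1.24 and -0.96, and 0 were called for the genotype on HFD or for the diet in wild-type livers. C1qa, a subunit of complement C1q, rose from 17.7 ± 1.10 to 40.0 ± 1.45 CPM on chow (1.18 ± 0.14, edgeR adjusted p = 0.0262), Cd5l, a secreted scavenger protein, from 36.1 ± 1.14 to 122 ± 27.1 CPM (1.76 ± 0.24, edgeR adjusted p = 0.0356) and Clec4f, a Kupffer cell lectin, from 50.6 ± 4.21 to 116.5 ± 9.79 CPM (1.20 ± 0.17, edgeR adjusted p = 0.0407). Their summed level was 161.5 to 171 CPM in the 4 wild-type libraries, 466 and 387 in libraries 3 and 4, and 267 and 172 in libraries 7 and 8, and no Kupffer marker was at 0 in any library. On HFD with the het label, Vsig4, a complement receptor, fell from 32.0 ± 6.13 to 14.9 ± 5.39 CPM (-1.09 ± 0.23, edgeR adjusted p = 0.0439), beside falls of C1qa (-0.80 ± 0.14, edgeR adjusted p = 0.0267) and Clec4f (-0.89 ± 0.17, edgeR adjusted p = 0.0287). Timd4, a receptor for dying cells, stood at 3.53 and 2.96, 2.48 and 2.46, 12.2 and 5.78, and 4.40 and 3.485 CPM in the 4 groups and did not pass (edgeR adjusted p = 0.0960 on chow). Marco stood at 4.095 and 4.64, 0.346 and 1.695, 9.85 and 6.74, and 5.10 and 1.14 CPM in the same order. Its diet difference in wild-type livers was -2.07 ± 0.69 (edgeR adjusted p = 0.145). The difference between its 2 diet responses was 0.73 (edgeR adjusted p = 0.865), where that of the 9 other markers was negative. The Kupffer counts were 0 in both comparisons without library 1, 2 or 3. On chow the count was also 0 without library 6, 1 without library 5 and 9 without library 4. For the diet it was also lower without library 4, 5, 6 or 8, and it was 0 in the 4 het-labelled libraries alone. Calls over all rows fell too, on chow without any 1 of libraries 1, 2, 3, 5 and 6, and for the diet in each omission.

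Markers of other leukocytes were low. Summed levels lay between 3.94 and 11.1 CPM for 8 monocyte markers, 1.86 and 6.12 for 7 neutrophil markers, 5.60 and 8.43 for 7 dendritic cell markers, 2.90 and 5.53 for 8 T cell markers, 2.30 and 4.32 for 5 B cell markers and 0.656 and 1.84 for 6 NK cell markers. The monocyte, neutrophil and dendritic cell sums were highest in libraries 3 and 4, at 11.1 and 9.46, at 4.54 and 6.12 and at 8.43 and 8.10 CPM. Of these lists' tested markers (5 monocyte, 2 neutrophil, 4 dendritic, 2 T and 4 B cell, 0 NK cell), none passed in the 4 pairwise comparisons (0 calls in edgeR). Their median log2 difference between genotypes on chow was 0.94 for monocyte (5 of 5 positive) and 0.94 for neutrophil markers (2 of 2). It was 0.30 for dendritic cell (3 of 4), 0.37 for T cell (1 of 2) and 0.15 for B cell markers (2 of 4). Mpo and Camp of neutrophil granules had 0 counts in all 8 libraries. Ly6c2 and Ccr2, which mark inflammatory monocytes, stood at 0.142 to 0.612 and 0.383 to 1.91 CPM, S100a8 of neutrophils at 0.115 to 1.29, Cd3e of T cells at 0.126 to 0.496 and Cd79a of B cells at 0.383 to 1.07 CPM. Of 4 tested markers of lipid-associated macrophages 0 were called, their list summed to 53.25 to 88.4 CPM, most of it from Spp1 and Fabp5, and Trem2 stood at 0.0711 to 0.3755 CPM, near the 0.161 to 0.213 CPM that 3 counts are worth. The 8 pan-leukocyte genes had a median log2 difference between genotypes of 0.87 on chow, positive for 8 of 8. Among them, Ptprc (CD45) stood at 6.005 ± 0.117, 5.71 ± 0.496, 14.1 ± 4.19 and 7.67 ± 2.20 CPM and did not pass on chow (edgeR adjusted p = 0.0720). Lcp1 and Rac2 fell on HFD in het-labelled livers (-0.49 ± 0.09, edgeR adjusted p = 0.0281, and -1.21 ± 0.24, edgeR adjusted p = 0.0345).

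**Figure D3:**
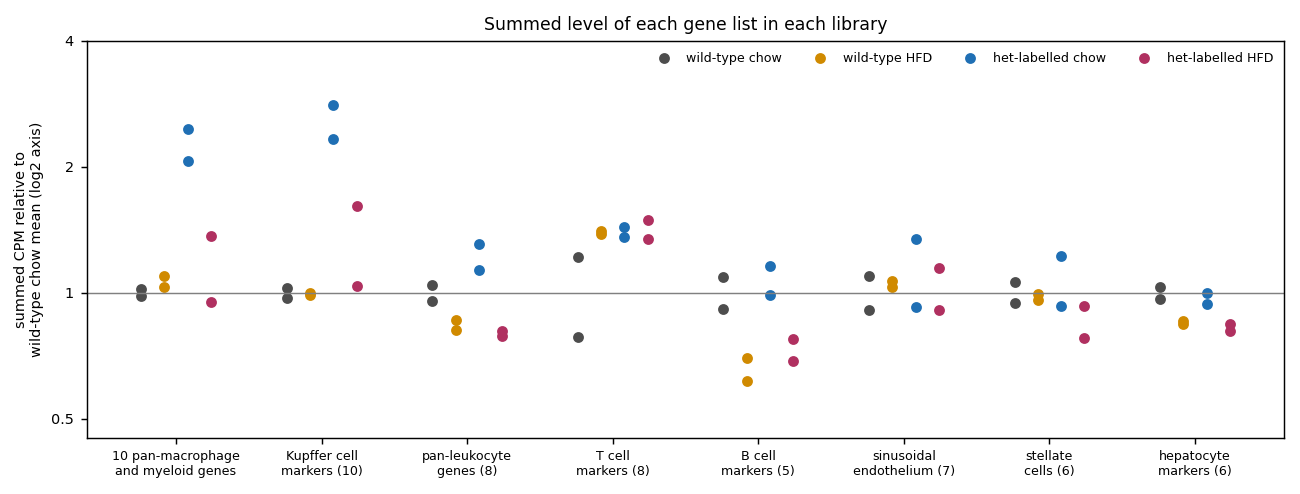
Summed CPM of gene lists (x axis, number of genes in brackets) in each library relative to the mean of the 2 wild-type chow libraries (y axis, log2 scale), coloured by group. The 10 pan-macrophage and myeloid genes, the Kupffer cell markers and the pan-leukocyte genes have both het-labelled chow libraries above the other 6.

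For other liver cells, 0 of 7 sinusoidal endothelial, 0 of 6 stellate cell and 0 of 3 tested cholangiocyte markers were called in any pairwise comparison, and the lists summed to 129 to 191, 139 to 218 and 3.41 to 6.36 CPM. The endothelial and stellate sums were highest in library 3, at 191 and 218 CPM, and not in library 4, at 131 and 166. On chow their median log2 differences between genotypes were 0.12 and 0.13, beside 1.26 for the 10 genes. Of 6 hepatocyte markers, 0 differed between the genotypes on either diet and 1, Cps1, fell on HFD in wild-type livers. Among red cell genes, the merged row of Hbb-b1 and Hbb-b2 stood at 47.7 ± 12.4, 179 ± 36.6, 53.2 ± 2.15 and 81.5 ± 6.59 CPM in the 4 groups. This row rose on HFD in wild-type livers (1.91 ± 0.19, edgeR adjusted p = 0.00181) and was lower with the het label on HFD (-1.13 ± 0.18, edgeR adjusted p = 0.0459). Alas2, of haem synthesis, was lower with the het label on chow (-0.81 ± 0.097, edgeR adjusted p = 0.0262) and on HFD (-1.10 ± 0.097, edgeR adjusted p = 0.00411). The part of these other cells in the levels of the 10 genes was not tested.

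Over the 8 libraries, each of 9 genes followed the mean log2 level of the other members with a Pearson r between 0.959 (Lyz2 and Siglec1) and 0.989 (Laptm5), and Mpeg1 with 0.656. These are descriptions over 8 libraries in 4 groups of 2, and libraries 3 and 4 set most of the range. Among 11576 other rows with a mean of at least 1 CPM, the 10 most like the mean of the members were Clec4f, Cfp, Sdc3, Fyb, Cd44, Itgal, C1qb, Cd53, Siglece and Iqgap1, with Pearson r from 0.981 to 0.995. Clec4f and C1qb belong to the Kupffer cell list and Cd53 to the pan-leukocyte list. Cfp (properdin, which stabilises the alternative complement convertase) stood in wild-type livers at 11.03 and 9.45 CPM on chow and 10.2 and 10.4 on HFD, and with the het label at 22.96 and 23.0 CPM on chow and 13.7 and 10.2 on HFD.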

How the data were processed

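Liver RNA of 8 libraries was sequenced, with groups and numbers of the libraries read from their titles. The deposited table gives whole-number read counts per gene without normalization. CASAVA, TopHat2, HTSeq, DESeq and the build mm9 were used by the authors, per the submitters' processing notes, with versions, settings and roles not given in the sources used here. Whether strand was kept is not stated either.

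Counts were fitted with edgeR 4.0.16 (R 4.3.3): rows kept by filterByExpr, TMM factors, 1 quasi-likelihood model of 4 group means over all 8 libraries (4 residual and 4.77 prior degrees of freedom), 2-sided contrasts, and Benjamini-Hochberg adjustment over all 12593 tested rows. Called means an adjusted p below 0.05. SEs were calculated back from the test statistic, and 95% intervals from them. The precision of each level is limited by counting as well as by n = 2. The procedure was tested on simulated data. Alternatives were other size factors, DESeq2 1.42.0, no filter other than 1 count in any library, a fit to the compared groups alone and the omission of each library.

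The members and gene lists were chosen with earlier results of these data known. The 10 members were always named, together with a fixed panel and up to 3 called genes per other list. The genes named as most alike had the highest Pearson r of log2 CPM (prior count 2). Ly6g was not analysed here, and some listed genes are not reported here.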

Additional observations from a re-analysis of the deposited data

Results flagged for a closer look

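For Siglec1 and Mpeg1 the diet groups were ordered oppositely in the 2 genotypes. In wild-type livers both HFD libraries lay above both chow libraries, and in het-labelled livers both lay below. The first of these orderings held for 30.6% of tested rows and the second for 22.4%. The share of rows with both was not calculated. The difference of the diet responses on the log2 scale was -2.01 for Siglec1 (edgeR adjusted p = 0.360) and -0.90 for Mpeg1 (edgeR adjusted p = 0.580), and neither passed. The groups of 2 libraries are too small for a search for single outlying libraries.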

How the results depend on the processing

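No paired analysis was possible because the library numbers run from 1 to 8 and none occurs in 2 groups. With other size factors in edgeR every count of called members was within 1.5 times that reported. DESeq2 called 9 members for the genotype on chow and 1 for the interaction. With no filter on low counts, 10 passed for the genotype on chow, 9 for the diet with the het label, 7 for the diet averaged over genotypes and 1 for the interaction. Calls over all rows rose with them, to 314, 680, 1508 and 8 of 17120, from 65, 380, 1309 and 0 of 12593. Fits to the 4 compared libraries gave 6 for the genotype on chow, 2 for the wild-type diet comparison and 1 for the diet with the het label. Calls over all rows in these fits were 64 of 12200, 1351 of 12304 and 105 of 12153. Omitting 1 library at a time gave 0 to 8 for the genotype on chow, 1 to 6 for the diet with the het label, 0 to 1 for the interaction, 0 to 5 for the averaged diet and 0 to 8 for the averaged genotype comparison, and 0 throughout for the wild-type diet comparison and the genotype on HFD. The cause of these shifts was not tested. An omission leaves 1 library in a group, assumed to vary like the others.

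Signs turned only among differences that were not called. For the diet in wild-type livers, Fcer1g was -0.0016 in the 4 libraries alone and -0.0041 and -0.023 without libraries 4 and 5. Over the 8 omissions the lowest and highest values there were -0.070 and 0.088 for Fcer1g, -0.18 and 0.11 for Cd68, -0.52 and 0.18 for Emr1, -0.051 and 0.13 for Tyrobp and -0.29 and 0.058 for Ctss. For the genotype on HFD they were -0.027 and 0.44 for Cd68, -0.20 and 0.87 for Lyz2, -0.40 and 0.60 for Csf1r, -0.12 and 0.31 for Siglec1, -0.067 and 0.46 for Tyrobp and -0.043 and 0.27 for Fcer1g, each lowest without library 7 and highest without library 8. Mpeg1 ranged from -0.056 to 0.13 for the averaged diet comparison.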

Other observations

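Some further genotype or diet differences of listed genes passed only when averaged over the other factor. Averaged over the diets, Btk, a kinase downstream of SYK (log2 difference 1.18 ± 0.26 (SE), edgeR adjusted p = 0.0494), Csf3r, the receptor for G-CSF on neutrophils (0.98 ± 0.16, edgeR adjusted p = 0.0220), Cd53 (0.79 ± 0.16, edgeR adjusted p = 0.0387) and Ptprc (0.84 ± 0.18, edgeR adjusted p = 0.0420) were higher in het-labelled livers. Averaged over the genotypes, the cathepsins Ctsz (-0.29 ± 0.064, edgeR adjusted p = 0.0233) and Ctsc (-0.77 ± 0.17, edgeR adjusted p = 0.0243) and the haemoglobin scavenger receptor Cd163 (-0.93 ± 0.25, edgeR adjusted p = 0.0477) were lower on HFD. Marco, a scavenger receptor of Kupffer cells, was lower too (-1.71 ± 0.44, edgeR adjusted p = 0.0440).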
